A study of Mus musculus with 6 samples.

Results

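The genes described here are 10 hepatic steroid dehydrogenases and reductases of the mouse: Hsd3b2, Hsd3b3, Hsd3b5, Hsd17b2, Hsd17b6, Hsd17b11, Hsd17b13, Srd5a1, Akr1c6 and Akr1c14. They were taken by symbol from the 30889 genes of the deposited table, and each symbol matched 1 row. The table holds liver mRNA from mice treated by mouth for 14 days with a water extract of Emilia sonchifolia, a herb of the daisy family (extract, 3 libraries), or with phosphate buffered saline (control, 3 libraries). Strain, sex, age and dose are not given in the sources used here. Whether each library is a separate animal is not given either, so p-values here speak only of the variation among the libraries as deposited, which could be of technical origin.

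The liver inactivates circulating androgens, oestrogens and glucocorticoids by oxidising or reducing single groups on the steroid skeleton. Short-chain dehydrogenases of the Hsd families and aldo-keto reductases of the Akr1c family do this in opposite directions, depending on the cofactor, and the product is then conjugated and excreted. In rodents several of these enzymes differ in level between males and females, under the control of the pulsatile secretion of growth hormone and its signal through STAT5. Others sit on lipid droplets and act on lipids or retinol as well as on steroids.

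With the extract, 2 of the 10 genes rose, 4 fell and 4 did not pass the test (edgeR quasi-likelihood test, Benjamini-Hochberg adjusted p under 0.05). Over the 18071 genes tested, 14.2% were called higher and 12.8% lower, 26.9% in all. All 10 genes passed the filter on low counts. Their median log2 fold change was -0.16, against -0.02 over all genes tested. Hsd3b5 had the largest change of the 10, a 4.59-fold fall, and Hsd17b6 fell 1.74-fold. Akr1c14 and Akr1c6 rose 1.28-fold and 1.25-fold. The falls of Hsd17b2 and Hsd17b13 were 1.17-fold and 1.16-fold.

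By mean FPKM in control livers, the 10 genes stood between the 86.0 and the 99.2 percentile of the genes tested. In control livers the order of levels, from high to low, was Akr1c6, Hsd17b6, Hsd17b13, Akr1c14, Hsd17b2, Hsd17b11, Hsd3b3, Hsd3b2, Hsd3b5 and Srd5a1. The control ranges of Akr1c6 and Hsd17b6 overlapped, and so did those of Hsd3b5 with both Hsd3b2 and Srd5a1. In extract livers Hsd17b13 stood above Hsd17b6, and Hsd3b5 stood below Srd5a1, with no overlap in either pair.

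**Figure D1:**
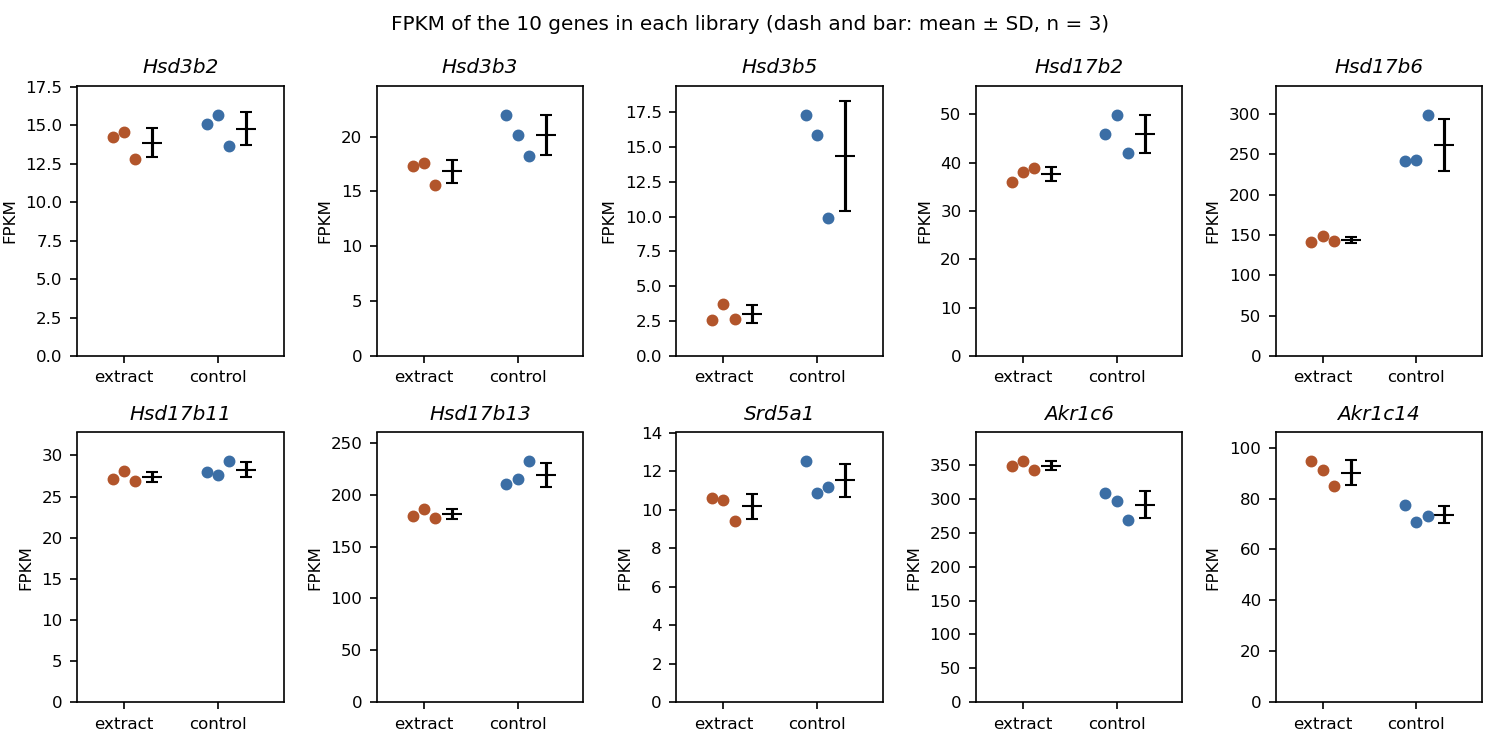
FPKM of each of the 10 genes (y axis, starting at 0) in the 3 extract and the 3 control libraries; points are libraries and the dash with its bar is the mean ± SD. The extract points lie below the control points for Hsd3b5 and Hsd17b6 and above them for Akr1c6 and Akr1c14, while the groups overlap for Hsd3b2 and Hsd17b11.

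Hsd3b5, Hsd3b2 and Hsd3b3 are neighbouring copies in a cluster of 6 Hsd3b genes on chromosome 3 (GRCm38, 98499071 to 98859794, minus strand). How alike they are bears on how far their reads can be told apart, so the first 90 bases of each coding sequence are shown, from GENCODE release M21 on GRCm38. Capitals mark bases that differ from Hsd3b2, 14 in Hsd3b5 and 4 in Hsd3b3.
Hsd3b5: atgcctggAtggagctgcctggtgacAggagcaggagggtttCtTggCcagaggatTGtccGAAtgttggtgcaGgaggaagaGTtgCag
Hsd3b3: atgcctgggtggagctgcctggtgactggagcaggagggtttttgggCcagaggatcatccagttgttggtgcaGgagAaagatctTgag
Hsd3b2: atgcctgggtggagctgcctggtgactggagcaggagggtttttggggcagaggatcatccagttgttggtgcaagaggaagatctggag
Over the whole coding sequence of 1119 bases, Hsd3b5 was 80.3% identical to Hsd3b2 and 80.0% to Hsd3b3, and Hsd3b3 was 95.1% identical to Hsd3b2. Of the distinct windows of 50 bases in its transcript, Hsd3b5 shared 21.2% with transcripts of other genes, among them Hsd3b4 and the predicted gene Gm10681. Hsd3b2 shared 25.3% and Hsd3b3 29.6%, with each other among other genes, so values of all 3 depend on how the authors' counting split shared reads.

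Unlike the coding sequences, the promoters of Hsd3b5 and Hsd3b3 resemble each other more than either resembles that of Hsd3b2. They are shown as the 250 bases before the RefSeq start (GRCm38.p6, minus strand, printed 5′ to 3′), with the longest run that both share, 24 bases, in capitals. The Hsd3b5 window is chr3:98645535-98645784 and the Hsd3b3 window chr3:98763129-98763378.
Hsd3b5: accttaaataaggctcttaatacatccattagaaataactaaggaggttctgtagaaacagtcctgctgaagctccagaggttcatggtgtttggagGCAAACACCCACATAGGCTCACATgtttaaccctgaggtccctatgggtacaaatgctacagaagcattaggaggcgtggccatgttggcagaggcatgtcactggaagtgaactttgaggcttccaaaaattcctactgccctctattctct
Hsd3b3: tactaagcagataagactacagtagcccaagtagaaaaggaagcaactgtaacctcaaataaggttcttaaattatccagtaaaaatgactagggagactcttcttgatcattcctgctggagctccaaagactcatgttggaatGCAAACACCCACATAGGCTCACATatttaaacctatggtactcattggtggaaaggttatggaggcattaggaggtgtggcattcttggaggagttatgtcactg
In a local alignment they were 74.8% identical over 202 columns. The longest run that the Hsd3b2 promoter shared with either was 8 bases. The RefSeq start of Hsd3b5 lies 15282 bases upstream of the gene start in the deposited table, and that of Akr1c14 lies 10580 bases downstream of its own. Hsd3b3 and Hsd17b6 have 2 RefSeq promoter entries each, and only the entry nearest to the gene start in the deposited table was used. The motif TTCNNNGAA, the usual STAT5 element, was searched on both strands of the 250 bases before the start of the 9 genes that have a RefSeq promoter, and was in 0 of them. It is in 7.02% of the 32851 promoter windows of that length. These counts say only that the letters are not in these windows.

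Hsd3b5 (ENSMUSG00000038092, GRCm38 chromosome 3, gene span 98618634 to 98630252) reduces active keto-steroids in mouse liver and is known there as a transcript of adult males. It was at 2.60, 3.71 and 2.66 FPKM in extract livers, against 17.3, 15.9 and 9.86 FPKM in control livers. Every extract library was below every control library, and control 3 was the lowest of the controls. This is a log2 fold change of -2.20 ± 0.22 (SE; adjusted p = 0.000316 by edgeR), or of -2.40 when control 3 is left out. A called fall of at least 2 on the log2 scale was seen in 172 of the 18071 genes tested (0.952%). The sum over the markers of other leukocytes, 10 genes, moved the same way, at 42.1 to 54.4 FPKM in extract livers and 129 to 231 FPKM in control livers, and control 3 was again the lowest control, as it was for the hepatocyte marker sum. Leukocytes were not alone in this. Marker sums of Kupffer cells, red cells and endothelium were also lower in every extract library than in any control. Those of stellate and bile duct cells overlapped between the groups. The part of these cells in the Hsd3b5 result was not tested. In bulk tissue, fewer cells of a type and less RNA per cell cannot be told apart.

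Hsd3b3 (ENSMUSG00000062410, chromosome 3, 98741523 to 98763127) and Hsd3b2 (ENSMUSG00000063730, chromosome 3, 98709255 to 98724543) code for dehydrogenases that convert hydroxy-steroids to keto-steroids. Hsd3b3 was at 17.3, 17.6 and 15.6 FPKM in extract livers and 21.98, 20.2 and 18.3 FPKM in control livers. The groups did not overlap, and the log2 fold change of -0.20 ± 0.07 (SE) missed the threshold (edgeR adjusted p = 0.0729). It passed without control 3 (adjusted p = 0.0206), with DESeq2 (0.0250) and with the replicate number as a block (0.0486). Hsd3b2 was at 14.3, 14.6 and 12.8 FPKM in extract livers and 15.1, 15.7 and 13.6 FPKM in control livers, ranges that overlap (log2 fold change -0.03 ± 0.06, SE, adjusted p = 0.758).

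The 3 Hsd3b genes were also summed. It was 33.7 ± 2.41 FPKM in extract livers and 49.3 ± 6.63 FPKM in control livers (SD, n = 3). Hsd3b5 made up 7.60%, 10.4% and 8.57% of that sum in extract livers, against 31.8%, 30.7% and 23.6% in control livers. Hsd3b3 was the largest part of the sum in all 6 libraries. On the summed counts, where Hsd3b3 and Hsd3b2 weigh more against Hsd3b5 than in FPKM, the log2 fold change was -0.27. The reason for this difference in weight was not tested. The remaining Hsd3b genes of the cluster, Hsd3b1, Hsd3b4 and Hsd3b6, had means of 0.165 to 0.305 FPKM in either group and were not called. Hsd3b4 shared 100% of its windows of 50 bases with transcripts of other genes, so its low value cannot be read as its own level.

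**Figure D2:**
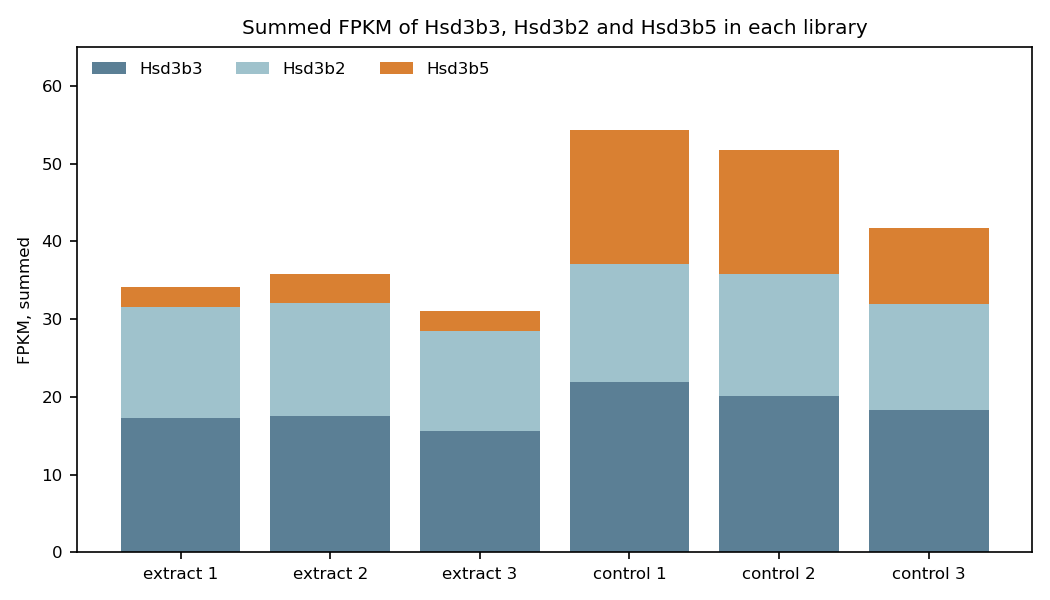
Stacked bars of FPKM (y axis, starting at 0) for Hsd3b3, Hsd3b2 and Hsd3b5 in each extract and control library. The Hsd3b5 part is 2.60 to 3.71 FPKM in extract livers and 9.86 to 17.3 FPKM in control livers, and the other parts differ less between the groups.

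Hsd17b6 (ENSMUSG00000025396, chromosome 10, 127990936 to 128007611), an enzyme close to the retinol dehydrogenases that oxidises androgens, was the second largest fall. It was at 141, 148 and 142 FPKM in extract livers, against 242, 243 and 299 FPKM in control livers. All extract libraries were below all controls, and control 3 was the highest control. The difference was -0.80 ± 0.08 on the log2 scale (SE; adjusted p = 0.000398 by edgeR), or -0.69 when control 3 is left out. Its transcript shared 14.8% of its windows of 50 bases with other genes, among them Rdh1. Its level therefore depends in part on how shared reads were counted, by an amount that was not measured. The related genes Rdh9 and Rdh16 were at 28.4 ± 1.43 and 9.92 ± 0.600 FPKM in extract livers and at 28.3 ± 1.42 and 11.3 ± 0.829 FPKM in control livers (SD, n = 3), and neither was called. Neither is among the genes that shared most windows with Hsd17b6, so their levels do not test the sharing.

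Hsd17b2 (ENSMUSG00000031844, chromosome 8, 117701904 to 117759027) oxidises oestradiol and testosterone to their weaker keto forms. It was at 36.0, 38.0 and 38.8 FPKM in extract livers and 46.0, 49.9 and 41.9 FPKM in control livers. The groups did not overlap, and edgeR gave a log2 fold change of -0.23 ± 0.06 (SE, adjusted p = 0.0331). This call ended under 8 of 16 alternatives, 5 of them the omission of 1 library (any but control 3), with adjusted p from 0.0523 to 0.150 among those 8.

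Hsd17b13 (ENSMUSG00000034528, chromosome 5, 103955440 to 103977364) codes for a protein of hepatocyte lipid droplets with activity on retinol in human. It was at 179, 187 and 177 FPKM in extract livers and 210, 215 and 232 FPKM in control livers, with no overlap. edgeR gave a log2 fold change of -0.21 ± 0.05 (SE, adjusted p = 0.0145). The call ended without extract 1, extract 2 or extract 3 (adjusted p = 0.0862, 0.0517 and 0.0591). Its neighbour Hsd17b11 (ENSMUSG00000029311, chromosome 5, 103989762 to 104021919), also a lipid droplet protein, lies 12397 bases away on the same strand. Hsd17b11 was at 27.1, 28.1 and 26.9 FPKM in extract livers and 27.95, 27.6 and 29.3 FPKM in control livers, which overlap (log2 fold change 0.01 ± 0.04, SE, adjusted p = 0.851). The coding sequences of the pair are 64.6% identical. Hsd17b11 shared 0% of its windows of 50 bases with other genes and Hsd17b13 0.663%.

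Srd5a1 (ENSMUSG00000021594, chromosome 13, 69573449 to 69611442) is the steroid reductase that turns testosterone into dihydrotestosterone and also inactivates glucocorticoids in liver. It was at 10.6, 10.5 and 9.41 FPKM in extract livers and 12.5, 10.9 and 11.2 FPKM in control livers. These FPKM ranges did not overlap, but the CPM, counts scaled to library size with TMM factors, did, at 38.1, 37.2 and 34.3 in extract livers and 43.2, 37.0 and 38.9 in control livers. edgeR gave a log2 fold change of -0.12 ± 0.07 (SE, adjusted p = 0.272), and no alternative called it. Its span overlaps that of Nsun2 on the other strand, at 8.75 to 10.1 FPKM in extract livers and 9.54 to 9.84 FPKM in control livers. No use of strand is stated, so reads of the overlap cannot be told apart. Its transcript also shared 16.5% of its windows of 50 bases with Gm17108, a predicted gene that overlaps it on the same strand. Gm17108 was at most 0.137 FPKM in any library, and how reads shared with it were counted is not given.

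Akr1c14 (ENSMUSG00000033715, chromosome 13, 4049011 to 4090688) reduces dihydrotestosterone to a weak androgen, as known for its rat counterpart. It was at 94.6, 91.3 and 84.8 FPKM in extract livers and 77.5, 70.7 and 73.0 FPKM in control livers. The groups did not overlap, and edgeR gave a log2 fold change of 0.35 ± 0.05 (SE, adjusted p = 0.00226). Akr1c6 (ENSMUSG00000021210, chromosome 13, 4434306 to 4457530), which interconverts weak and strong oestrogens and androgens, was the most abundant of the 10. It was at 348, 355 and 342 FPKM in extract livers and 308, 297 and 269 FPKM in control livers, again without overlap (log2 fold change 0.32 ± 0.05, SE, adjusted p = 0.00252). Both calls held under all 16 alternatives, with adjusted p up to 0.0255 for Akr1c14 and 0.0416 for Akr1c6. The groups did not overlap in FPKM for 8 of the 10 genes, 2 higher and 6 lower with the extract. Over all genes tested this share was 44.6%, with 17.7% higher and 26.9% lower. In CPM the groups did not overlap for 7 of the 10 genes and for 44.7% of all genes tested.

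Both Akr1c genes lie in a cluster of 8 Akr1c genes in the table on chromosome 13 (GRCm38, 4049011 to 4586541). The 6 of them that reached a mean of 5 FPKM in a group were all called higher, with log2 fold changes from 0.30 to 0.95. Over all genes tested, 14.2% were called higher. Akr1c19 was at 10.6 ± 0.233 FPKM in extract livers and 5.72 ± 0.0971 FPKM in control livers, and Akr1c20 at 55.8 ± 2.34 and 35.2 ± 2.08 FPKM (SD, n = 3). The pair Akr1c12 and Akr1c13, 96.2% identical in coding sequence, rose 1.23-fold and 1.29-fold. Akr1c18 and Akr1c21 had means of 0.255 to 0.336 FPKM in either group and were not called. Akr1c6 shared 2.08% of its windows of 50 bases with another gene, Akr1c20, and Akr1c14 shared 0%, while Akr1c12 and Akr1c13 shared 28.6% each.

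A list of 31 other genes held hydroxysteroid dehydrogenases, steroid reductases, their relatives and the cofactor enzyme H6pd. Of them 29 were in the table and 28 were tested, of which 10 rose, 1 fell and 17 did not pass. Akr1c12, Akr1c13, Akr1c19 and Akr1c20 of the cluster above are among those that rose, so this count overlaps that of the cluster. Hsd17b3, another that rose, had means of only 0.362 FPKM in extract livers and 0.105 FPKM in control livers. The median log2 fold change of the 28 tested genes was 0.09, against -0.02 over all genes tested, of which 14.2% rose and 12.8% fell. Akr1d1, the reductase that gives steroids and bile acid precursors their bent ring shape, rose 1.69-fold, to 82.3 ± 4.36 FPKM in extract livers against 50.8 ± 3.78 FPKM in control livers (SD, n = 3). Hsd17b7, which also acts in cholesterol synthesis, rose 2.90-fold, and Hsd17b12, of fatty acid elongation, rose 1.29-fold. Hsd11b1, which regenerates active glucocorticoid in liver, was the 1 gene that fell, to 112 ± 5.08 FPKM in extract livers against 147 ± 3.64 FPKM in control livers. H6pd supplies its cofactor and was at 79.6 ± 0.380 and 76.2 ± 2.49 FPKM and did not pass (edgeR adjusted p = 0.0572). Hsd3b7, an enzyme of bile acid synthesis, was at 66.8 ± 1.37 and 64.0 ± 1.40 FPKM and did not pass either (adjusted p = 0.0532).

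**Figure D3:**
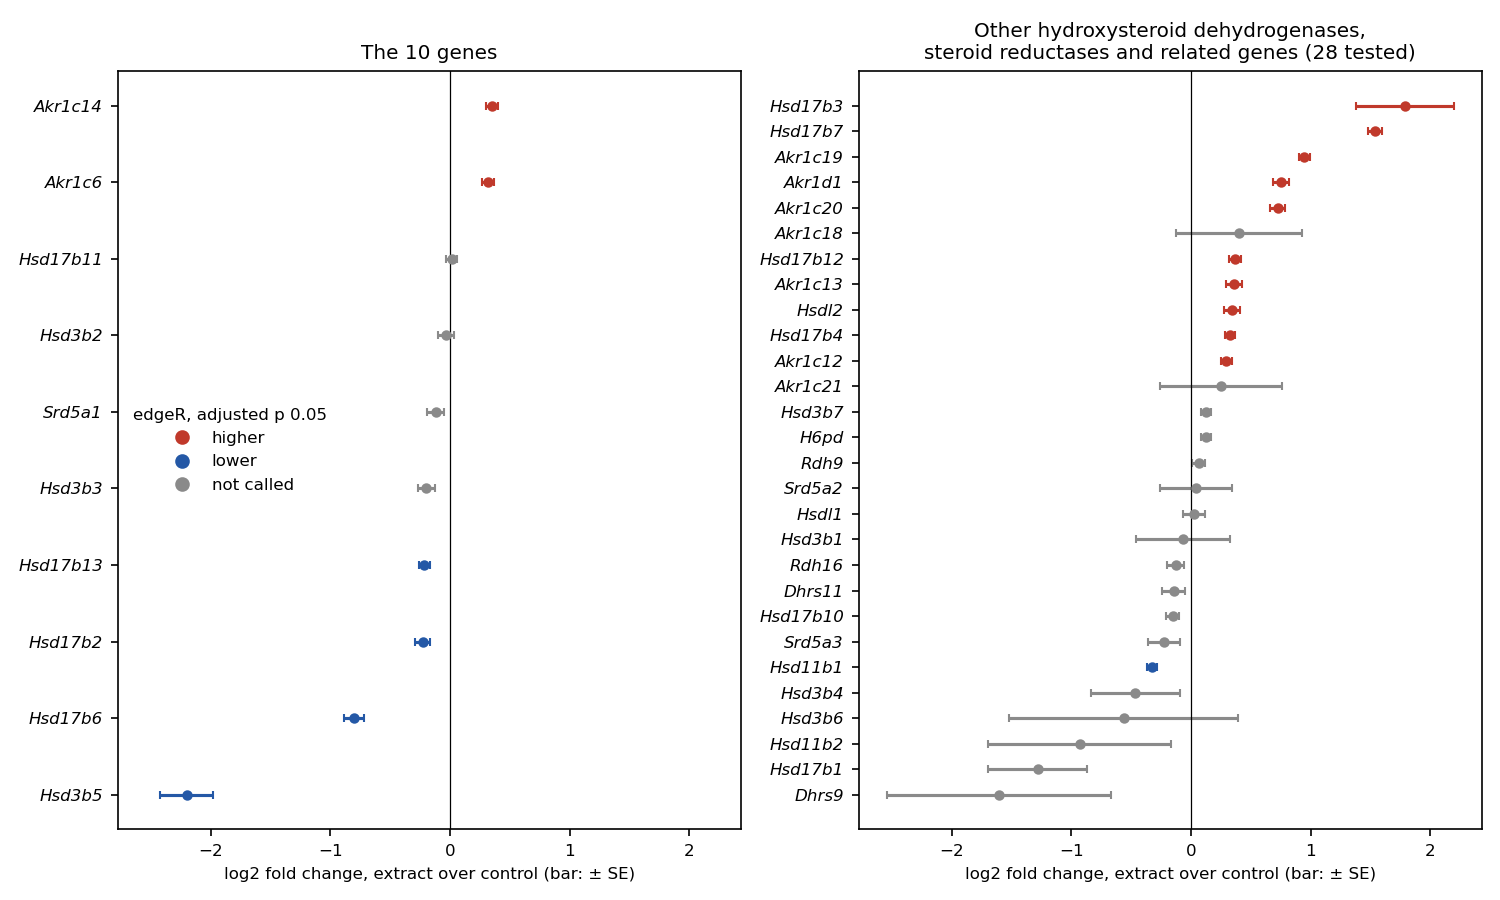
Log2 fold changes of extract over control (x axis) with their standard errors for the 10 genes (left) and for the 28 tested genes of the list of other hydroxysteroid dehydrogenases, reductases and related genes (right); colour gives the edgeR call. Hsd3b5 stands at -2.20 among the 10, and the called genes of the right panel are on the higher side except Hsd11b1.

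Of 21 genes of steroid P450 enzymes, sulfation and their electron donors, 17 were tested, 8 rose and 1 fell. The shares over all genes tested were 14.2% and 12.8%. Papss2, which makes the sulfate donor, rose 1.92-fold and Por, the electron donor of the P450 enzymes, 1.42-fold. Cyp7b1, which hydroxylates oxysterols and androgens, was at 6.33 ± 0.0857 FPKM in extract livers and 4.91 ± 0.220 FPKM in control livers (SD, n = 3, log2 fold change 0.43 ± 0.07, SE, edgeR adjusted p = 0.00287). Cyp21a1, an adrenal steroid hydroxylase, was the gene that fell, to 0.666 ± 0.0504 FPKM in extract livers against 1.80 ± 0.560 FPKM in control livers. Cyp17a1 and Sult1e1, which make and sulfate sex steroids, had means of 2.67 and 0.548 FPKM in extract livers and 2.75 and 0.620 FPKM in control livers and were not called.

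Of 12 genes of steroid receptors and their partners, 9 were tested, 5 rose and 1 fell. The shares over all genes tested were 14.2% and 12.8%. Esr1, the main oestrogen receptor of liver, rose 1.85-fold and Nr3c1, the glucocorticoid receptor, 1.46-fold. Serpina6, the plasma carrier of glucocorticoids, was at 246 ± 8.27 FPKM in extract livers and 126 ± 15.9 FPKM in control livers (SD, n = 3). Fkbp5, a co-chaperone induced by glucocorticoids, fell 1.23-fold.

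Several of the 10 genes are known as sex-biased in rodent liver, so genes of that kind were set beside them. Of 20 genes higher in male liver, Hsd3b5 among them, 19 were tested, 7 rose and 6 fell. Of 22 genes higher in female liver, all were tested, 9 rose and 3 fell. Over all genes tested, 14.2% rose and 12.8% fell. Mup21, a urinary protein, and Slco1a1, a transporter, had log2 fold changes of -2.17 and -0.82. Gstp1 and Nudt7 are in the same male list and rose 1.96-fold and 2.02-fold. In the female list the 4 genes with the smallest p all rose, the sulfotransferases Sult3a2 and Sult3a1 28.5-fold and 5.01-fold, Slc22a27 4.28-fold and Fmo2 1.82-fold. A1bg, of the same list, fell by 2.42 on the log2 scale. These lists were chosen with results of these samples known, and their counts are not independent evidence of a direction.

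Of 9 genes of growth hormone signalling, 6 rose and 1 fell, against 14.2% and 12.8% of all genes tested. Cish and Socs2, feedback inhibitors induced by STAT5, rose 4.59-fold and 2.54-fold, and Ghr, the growth hormone receptor, 1.31-fold. Bcl6, a repressor that STAT5 holds down, fell to 2.44 ± 0.225 FPKM in extract livers against 6.96 ± 0.600 FPKM in control livers (SD, n = 3). Stat5b, of the same 9, was not called (edgeR adjusted p = 0.274). Stat5a was among those that rose, 1.45-fold, with means of 1.24 FPKM in extract livers and 0.895 FPKM in control livers. Cux2, a repressor counted above in the female list and not among the 9, was not called (edgeR adjusted p = 0.220).

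**Figure D4:**
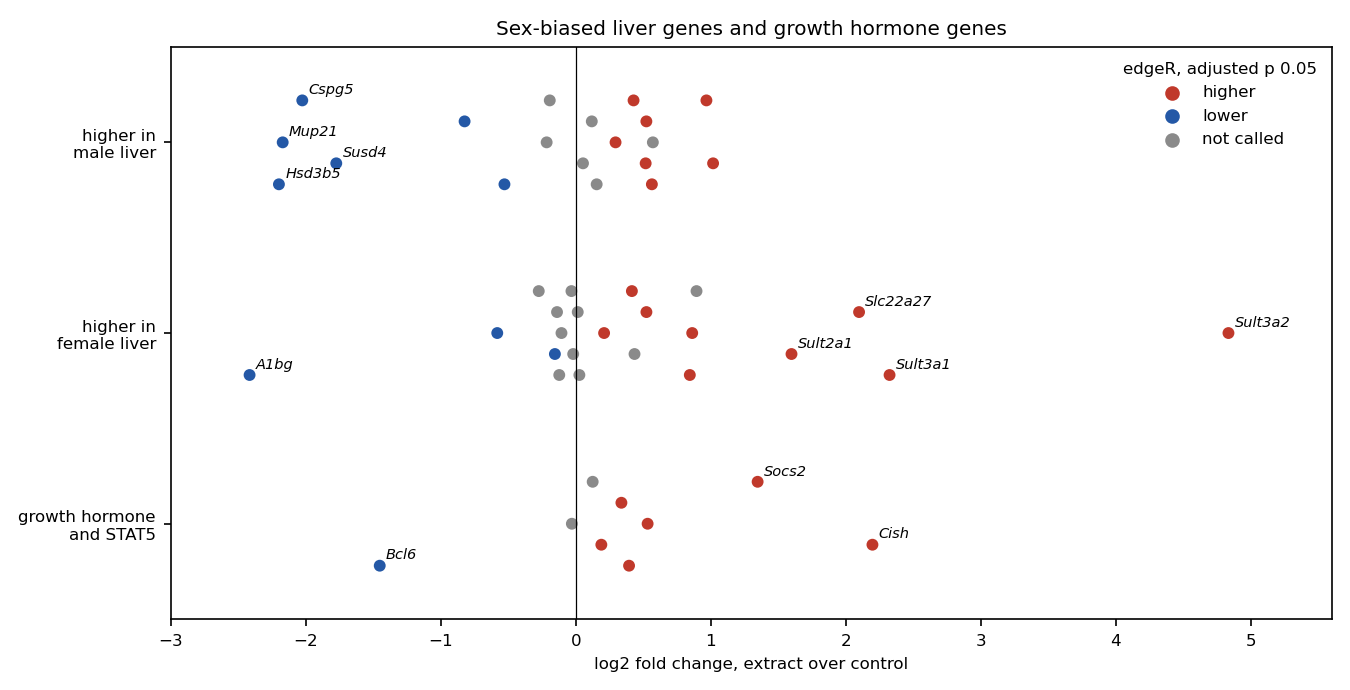
Log2 fold changes of extract over control (x axis) of the tested genes of 3 lists, genes known to be higher in male liver, in female liver, and genes of growth hormone and STAT5; each dot is a gene, spread vertically for legibility, and colour gives the edgeR call. Hsd3b5 and Mup21 stand near -2.2 in the male list, whose other called genes lie on both sides of 0.

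The sex of the mice is not given, and transcripts of the sex chromosomes were read beside Hsd3b5. Xist, made from the inactive X chromosome, was at 38.1, 40.0 and 37.8 FPKM in extract livers and 37.3, 35.0 and 34.5 FPKM in control livers. It was called higher with the extract (log2 fold change 0.18 ± 0.04, SE, edgeR adjusted p = 0.0164), and the groups did not overlap. The Y-linked gene Ddx3y was at 0.0865, 0.0706 and 0.106 FPKM in extract livers and 0.230, 0.284 and 0.204 FPKM in control livers. Eif2s3y, also Y-linked, was at 0.0829 ± 0.0208 FPKM in extract livers and 0.247 ± 0.0632 FPKM in control livers (SD, n = 3). Both Y-linked genes were called lower with the extract (edgeR adjusted p = 0.0102 and 0.0173), from 19 to 111 counts a library. In all 6 libraries Xist was at 34.5 FPKM or more and both Y-linked genes were at 0.284 FPKM or less. Xist far above Y-linked genes is the pattern of female tissue, and both groups had it. The other Y-linked genes read, Kdm5d and Uty, were not called. Whether these levels have a part in the Hsd3b5 result was not tested.

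Among 4554 named genes with a mean of at least 5 FPKM, those with the profile closest to Hsd3b5 over the 6 libraries were Mup21 and Rps4l, at root mean square distances of 0.21 and 0.24 on the centred log2(FPKM + 0.5) scale. Mup21 was at 7.51 ± 0.886 FPKM in extract livers and 35.4 ± 6.04 FPKM in control livers (SD, n = 3). Closest to Hsd17b6 were the transporter Slco1a4 (0.056) and Lurap1l (0.073). Slco1a4 was at 9.03 ± 0.212 FPKM in extract livers and 16.6 ± 1.08 FPKM in control livers. Closest to Akr1c6 were Arel1 and Mthfd1, and closest to Akr1c14 were Lactb2 and Bche, all at distances of 0.013 to 0.024. These distances are a description over 6 libraries in 2 groups, and many genes that differ between the groups lie close together on this measure.

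The libraries held 52941399 to 56603387 estimated counts in extract and 51219533 to 61432016 in control. The 10 hepatocyte markers summed to 46745 to 47654 FPKM in extract livers and 47068 to 56653 FPKM in control livers. Of them 3 were called higher and 4 lower, and of all genes tested 14.2% and 12.8% were. Alb, the largest of them, had means of 26017 FPKM in extract livers and 29910 FPKM in control livers and was not called. Stellate cell markers summed to 28.4 to 33.2 FPKM in extract livers and 26.4 to 30.9 FPKM in control livers. Of these 6, 2 were called higher and 1 lower. Kupffer cell markers summed to 204 to 219 FPKM in extract livers and 341 to 349 FPKM in control livers, with 8 of 8 lower, and 5 of 5 red cell markers were lower, at 198 to 236 FPKM in extract livers and 1271 to 1614 FPKM in control livers. Endothelial markers summed to 35.0 to 37.4 FPKM in extract livers and 45.2 to 50.1 FPKM in control livers, with 5 of 7 lower and 0 higher. Bile duct markers summed to 29.0 to 36.7 FPKM in extract livers and 35.8 to 48.7 FPKM in control livers, with 1 of 5 lower, and Krt19 was at 0.962 FPKM in control 1, against 7.21 and 9.99 FPKM in controls 2 and 3. The part of these cells in the results was not tested. Of 10 adrenal and gonad markers, 7 were in the table, and they summed to 1.60 to 2.14 FPKM in extract livers and 2.68 to 3.97 FPKM in control livers. Of the 5 tested, Cyp21a1 fell and the others, Star, Insl3, Hsd3b1 and Hsd3b6, did not pass. Cyp11a1 and Nr5a1 were not tested and stayed at or below 0.0442 and 0.0146 FPKM. Control 3 stood apart from the other controls in transcripts of other tissues, with the pancreas gene Ctrb1 at 21.6 FPKM against 0.00 and 0.245 FPKM in controls 1 and 2, and 20.6 to 24.3 FPKM in extract livers. The muscle gene Acta1 was at 38.6 to 69.1 FPKM in extract livers and at 0.216 FPKM in control 3, against 49.7 and 38.4 FPKM in controls 1 and 2. On FPKM as deposited, limma called 40.2% of its called genes higher, against 52.6% in the main test, and 50.7% with TMM factors.

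**Figure D5:**
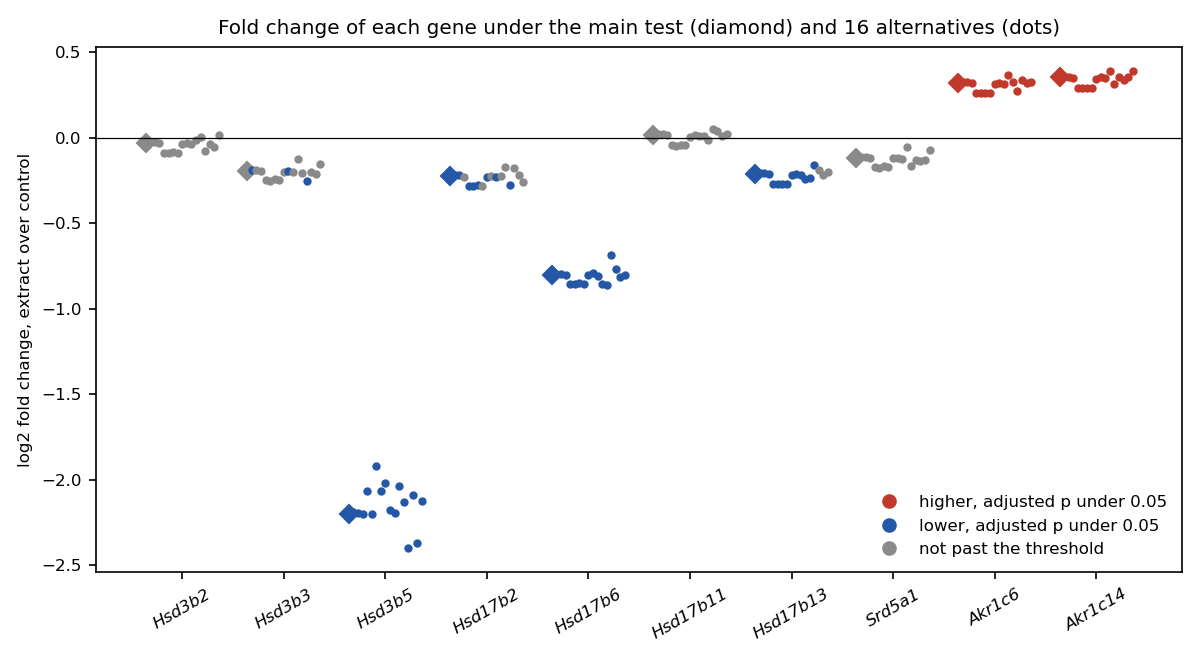
Log2 fold change of extract over control (y axis) for each of the 10 genes under the main test (diamond) and 16 alternatives (dots), coloured by whether the adjusted p passed 0.05. Hsd3b5, Hsd17b6, Akr1c6 and Akr1c14 are called under all of them, Hsd17b2 and Hsd17b13 under some, and Hsd3b2 and Hsd17b11 lie around 0.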

How the data were processed

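Liver mRNA was enriched with oligo(dT) before library construction, per the labels' protocols. StringTie 1.3.4d, HISAT2 2.0.4, edgeR and cutadapt 1.9 are listed in the submitters' processing notes, which give no order or settings. Strand use and genome build were not given in the sources used here. Spans of 8 of the 10 genes equal those of GENCODE M21 on GRCm38, and the table's spans are printed. The deposited estimated counts are whole numbers per gene, used without rounding, and the deposited FPKM are scaled by the authors for length and mapped fragments, as the unit named in the file headers says. Low counts peak at 4 (6292 entries, against 4117 at 3 and 2133 at 5). Another 6 columns of per-sample values match no sample and were not used.

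Columns were matched to samples by the code and number in the titles. edgeR 4.0.16 (R 4.3.3) kept 18071 genes with filterByExpr, scaled libraries with TMM and ran the quasi-likelihood test, two-sided, extract over control, adjusted over all genes by Benjamini-Hochberg. SE were taken from fold change and F. Alternatives used DESeq2 1.42.0, limma 3.58.1 on log2(FPKM + 0.5), other pseudocounts, filters and scalings, a replicate block and omission of each library. On simulated counts for this comparison (18071 genes, 200 changed), edgeR called 59% of the genes changed by 1 on the log2 scale and 77% of those changed by 2. False calls made up 11.7% of its 154. The changed genes were drawn from all levels of expression, and the data had 4870 genes called. These rates therefore do not carry over to the data or to the 10 genes, which are highly expressed. Sequences were aligned with Biopython 1.88. The members and lists were chosen with earlier results of these data known. All 10 genes are named. Of other lists, up to 4 genes with the smallest p were eligible, plus a fixed set of steroid and growth hormone genes. Genes named outside that rule, after their values were seen, were Rdh9, Rdh16, H6pd, Akr1c12, Akr1c13, Akr1c18, Akr1c21, Fkbp5, Slco1a1, A1bg, Nsun2, Krt19 and Alb. So were the sex-chromosome genes, Gm17108, Star, Insl3, Ctrb1, Acta1, Hsd17b3 and Stat5a.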

Additional observations from a re-analysis of the deposited data

How the results depend on the processing

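Hsd3b5, Hsd17b6, Akr1c6 and Akr1c14 kept their direction and their call, and Srd5a1 stayed uncalled with its direction, under all 16 alternatives. The 4 falls among the 10 genes numbered 2 without extract 1, extract 2 or extract 3, and ranged from 2 to 5 with 1 library left out. Over all genes, higher calls ranged from 1776 to 2553 and lower calls from 1442 to 2153 with 1 library left out. Leaving out control 2 gave 1442 lower calls, extract 1 gave 1480 and extract 2 gave 1461, against 2309 with all libraries, and limma on FPKM with no filter on low values called 1485 higher. Hsd3b2, never called, turned to 0.0035 and 0.017 on the log2 scale without control 2 and without extract 3, in a range from -0.079 to 0.017 with 1 library left out. Hsd17b11, never called, turned to -0.046 with limma on log2(FPKM + 0.5), -0.047 and -0.045 with pseudocounts of 0.1 and 1, -0.046 with no filter on low values and -0.012 without control 2, in a range from -0.012 to 0.049 with 1 library left out. The cause was not tested.

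Libraries with the same number did not deviate together, with correlations of -0.0754, -0.134 and -0.101 across 4882 genes. With the replicate block edgeR called 2044 genes higher and 1702 lower, and among the 10 genes Hsd17b2 lost its call (adjusted p = 0.0748) and Hsd3b3 gained one (0.0486). With 3 libraries a group, the SE of the log2 fold change was 0.0448 to 0.0850 for the genes other than Hsd3b5, which limits what can be called for the smallest differences.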
